A study of Rattus norvegicus with 11 samples.

Results

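The antimicrobial products of Paneth cells were followed in the ileum of rats with severe acute pancreatitis (SAP), with and without the inhibitor JZL184. The set was chosen by gene symbol and holds 9 genes, the alpha-defensins Defa11, Defa9, Defa5 and Defa24 and the secreted products Itln1, Mmp7, Lyz2, Pla2g2a and Ang. All 9 were found among the 24481 genes with read counts and the 24205 genes with FPKM, which scales the reads of a gene to its length and to the size of the library.

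Paneth cells sit at the base of the small intestinal crypts and release granules of antimicrobial proteins into the lumen. Alpha-defensins are small cationic peptides of these granules that damage bacterial membranes, and they are made as precursors that proteases cut, in the mouse matrilysin, the product of Mmp7. Lysozyme and secretory phospholipase A2, the products of Lyz2 and Pla2g2a, attack the bacterial cell wall and bacterial phospholipids.

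RNA of the ileum of SD rats aged 6 to 8 weeks was sequenced in 3 control, 4 SAP and 4 JZL184 libraries. In the SAP model, sodium taurocholate at 3% was infused into the pancreatic duct. Grouping took place 24 h after surgery, when the JZL184 group, made up of SAP rats, received JZL184 at 10 mg/kg into the peritoneum and the control and SAP groups received vehicle, and all rats were killed 24 h later. JZL184 inhibits monoacylglycerol lipase (MAGL), the enzyme that breaks down the endocannabinoid 2-AG. The labels give the control group as "control plasmid" and name the SAP libraries after oil, where the protocol describes vehicle, and no source used here describes an operation of the control rats. The labels also name intestinal epithelial cells, yet the smooth muscle list of 6 genes, which includes Myh11 and Des, summed to between 367 and 2115 FPKM, as in whole tissue.

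Between 26341299 and 33847135 reads per library lay on genes. The chi-square per gene was 2.81 for control libraries 1 and 2 and 77.48 to 563.03 for other pairs within a group. These 2 libraries differed by little more than the sampling noise and were counted as 1 sample, leaving n = 2, 4 and 4. SAP libraries 1 and 2 were low in short genes, since the 645 genes under 1 kb had a median log2 ratio to control of -1.23 and -1.31 there and of -0.52 to 0.15 in the other SAP and JZL184 libraries. SAP library 2 held 20 reads of Y-linked genes and 7826 reads of Xist, where the study describes male rats and the other libraries held at least 1222 Y-linked reads. JZL184 library 3 was low in transcripts of the ileum, and JZL184 library 1 was the highest in genes of the proximal small intestine. Some results that rest on these libraries are also given without them, where stated, and the others are given with all libraries only.

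The alpha-defensin genes lie in a cluster on chromosome 16 of 14 genes from Defa5 to RatNP-3b, in which Defa11 and RatNP-3b, another alpha-defensin gene, are neighbours in RefSeq. Of the 9 members, 9 were matched by symbol in RefSeq and 7 had a promoter sequence in the RefSeq table of build GRCr8. Defa5 and Defa24 had none. Defa11 and RatNP-3b are shown because their levels differed between libraries in unlike ways, although 227 of 255 aligned positions, or 89%, were identical over the 250 bases before their start sites. Bases that are not identical in the alignment are in capitals, at 23 positions in each. Defa11 lies at chr16:77238042-77238291 on the minus strand and RatNP-3b at chr16:77248978-77249227 on the minus strand of GRCr8.
Defa11: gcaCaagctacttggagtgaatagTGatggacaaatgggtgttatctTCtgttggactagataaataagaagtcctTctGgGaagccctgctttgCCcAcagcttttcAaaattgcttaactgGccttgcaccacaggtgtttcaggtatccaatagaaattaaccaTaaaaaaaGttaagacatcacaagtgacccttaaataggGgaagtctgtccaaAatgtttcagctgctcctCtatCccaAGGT
RatNP-3b: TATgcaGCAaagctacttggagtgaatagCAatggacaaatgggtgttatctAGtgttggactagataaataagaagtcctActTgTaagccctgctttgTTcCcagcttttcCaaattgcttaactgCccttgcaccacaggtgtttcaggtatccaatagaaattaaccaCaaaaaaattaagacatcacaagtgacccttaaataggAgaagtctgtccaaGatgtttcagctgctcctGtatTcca

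Defa9 and Mmp7 are shown because their levels followed each other across the libraries and both windows hold the motif ATCAAAG, a sequence bound by TCF/LEF factors of the Wnt pathway, which is known to drive Paneth cell maturation. The motif is in capitals, and it was searched on both strands, as ATCAAAG and CTTTGAT. It lies 146 to 140 bases before the start of Defa9 and 13 to 7 bases before that of Mmp7. It was found in 2 of 8 windows of members, Ang having 2 windows, and in 1054 of 33469 windows of the same length in the table, or 3.15%. Over the 10 samples, Pearson's r with Defa9 on log2(FPKM + 1) was 0.97 for Mmp7. For genes whose windows lack the motif, it was 0.94 for RatNP-3b, 0.80 for Lyz2, 0.78 for Pla2g2a, 0.57 for Defa11, -0.03 for Itln1 and -0.38 for Ang. A link between the motif and the levels was not tested. Defa9 lies at chr16:77184018-77184267 on the plus strand and Mmp7 at chr8:13132793-13133042 on the plus strand.
Defa9: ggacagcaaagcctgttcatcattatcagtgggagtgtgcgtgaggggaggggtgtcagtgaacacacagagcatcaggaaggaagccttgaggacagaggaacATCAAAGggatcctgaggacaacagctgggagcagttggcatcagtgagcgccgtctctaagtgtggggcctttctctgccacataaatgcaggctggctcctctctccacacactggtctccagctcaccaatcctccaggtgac
Mmp7: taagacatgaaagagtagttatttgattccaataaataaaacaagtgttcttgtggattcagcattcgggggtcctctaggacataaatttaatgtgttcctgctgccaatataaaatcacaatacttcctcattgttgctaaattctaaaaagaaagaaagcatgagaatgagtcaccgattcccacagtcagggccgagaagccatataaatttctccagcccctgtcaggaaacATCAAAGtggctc

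Over the 2 control samples, the level of Defa24 was the highest of the members, at 8845 FPKM ± 369 (SD, n = 2), followed by Pla2g2a at 1425 ± 143, Lyz2 at 1095 ± 150, Defa9 at 769 ± 8.5, Itln1 at 427 ± 372, Mmp7 at 104 ± 7.6, Defa11 at 99.8 ± 42.6, Ang at 3.45 ± 0.83 and Defa5 at 0.0175 ± 0.025 (all SD, n = 2). Of the neighbours in this order, Mmp7 and Defa11 overlapped between their control samples, at 98.3 to 109.1 and 69.6 to 129.9 FPKM. Reads of alpha-defensin genes, members and others, made up 1.04% to 1.07% of all reads in the control libraries. The share was 0.336% and 0.45% in SAP libraries 1 and 2, 1.1% and 1.58% in SAP libraries 3 and 4, and 0.693%, 0.512%, 0.0102% and 0.768% in JZL184 libraries 1 to 4. The 95% Wilson interval of the lowest share was 0.00983% to 0.0106%, and such intervals cover counting error only.

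**Figure D1:**
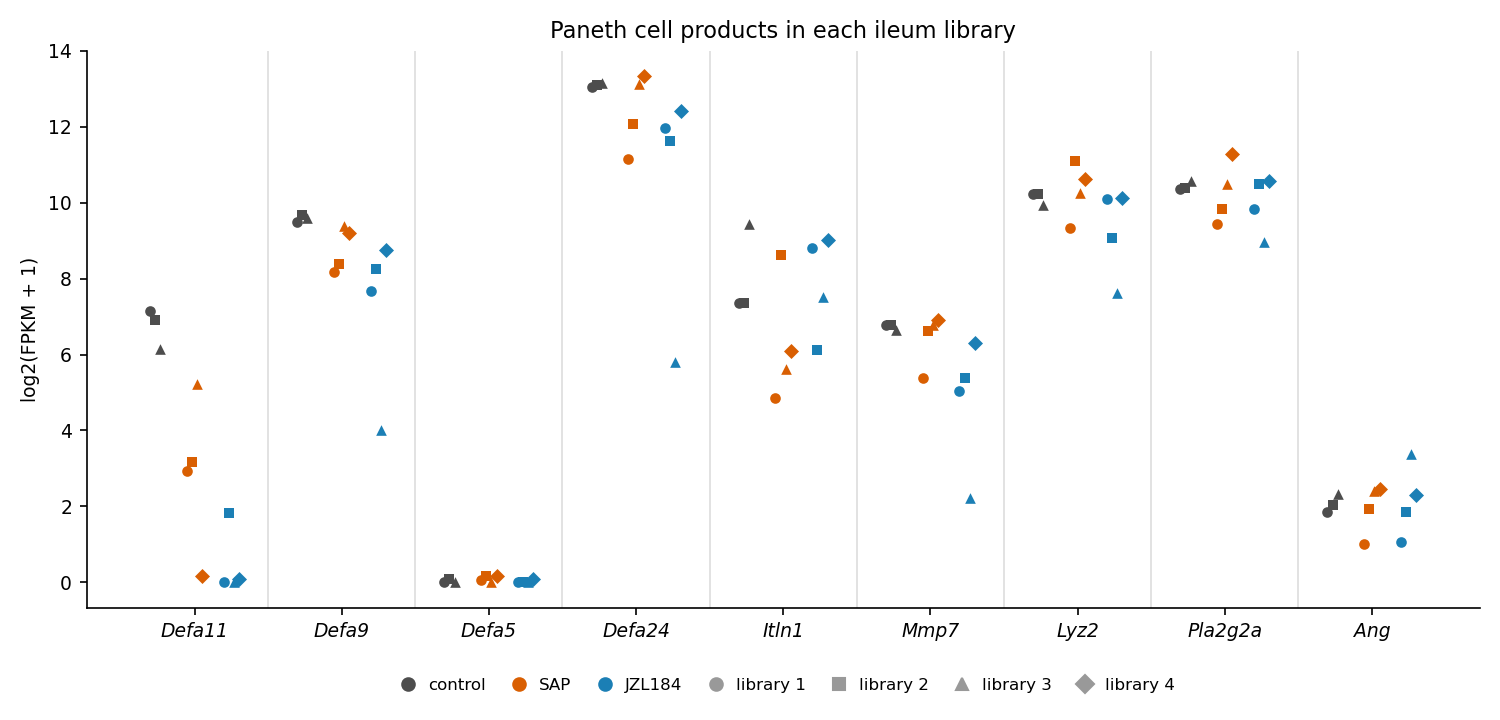
Level of each of the 9 members in each of the 11 libraries as log2(FPKM + 1), with groups in colour and library numbers as shapes. Defa11 was at or below 36.26 FPKM in every SAP and JZL184 library and at or above 69.63 in every control library. On normalized counts, 13.1% of all genes tested lay below every control sample in SAP and 20.3% in JZL184. JZL184 library 3 was the lowest JZL184 library for Defa24, Defa9, Mmp7, Lyz2 and Pla2g2a.

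On the log2 scale, Defa11 differed more than any other member tested in each comparison. In control libraries 1 to 3 it stood at 139.46, 120.30 and 69.63 FPKM, which rest on 2121, 1944 and 1167 reads. In SAP libraries 1 to 4 it stood at 6.65, 7.98, 36.26 and 0.12 FPKM. In JZL184 libraries 1 to 4 it stood at 0, 2.55, 0 and 0.07 FPKM, which rest on 0, 40, 0 and 1 reads. Every SAP and JZL184 library lay below every control library, whereas SAP and JZL184 overlapped, with SAP library 4 among the JZL184 values. On normalized counts, 13.1% of all genes tested lay below every control sample in SAP and 20.3% in JZL184. Compared with the control group, Defa11 fell in the JZL184 group by 7.22 on the log2 scale (SE 1.39), with an adjusted p of 0.044 in edgeR's quasi-likelihood test. A call needed an adjusted p under 0.05 together with a fold change of over 2 or under 0.5, and 343 of 15916 genes, or 2.16%, met this in the comparison. The call held in 11 of 17 alternatives that tested the gene. Among these 11, the edgeR, DESeq2 and replicate block fits with control libraries 1 and 2 as separate samples treat near-identical libraries as independent. The fit without JZL184 libraries 1 and 3 was chosen after seeing the data. So was the fit with the length trend removed and without JZL184 library 3. It was lost with DESeq2, at an adjusted p of 0.0789, with DESeq2 without JZL184 library 3, at 0.0521, with all 3 groups in 1 edgeR fit, at 0.0565, and without JZL184 library 4, at 0.0942. Without either control sample the adjusted p was 0.477 and 0.177, but these fits leave 1 control sample, take the spread from the JZL184 group alone and called 0 and 1 of all genes, so they cannot test the call. Without JZL184 library 2, the library with 40 reads, the fitted log2 fold change moved to -11.95 (edgeR adjusted p = 0.0113), a value that depends on the prior count because 1 read was left in the JZL184 group.

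Between the SAP and control groups, Defa11 had a log2 fold change of -3.16 (SE 1.27), with an unadjusted p of 0.0382 and an adjusted p of 0.459 by edgeR. Between JZL184 and SAP it was -4.00 (SE 1.64), with an adjusted p of 0.206 by edgeR. Neither difference passed the test. On FPKM, the exact two-sided permutation test gave p = 0.0667 for SAP against control and for JZL184 against control, the smallest that 4 against 2 samples allow. For JZL184 against SAP the exact permutation p was 0.0571, where the smallest possible is 0.0286, and it was 0.229 without JZL184 library 3. For SAP against control the same test gave 0.133 on log2(FPKM + 1) and 0.2 on log2(FPKM + 0.1). On these log scales the p of the comparisons with JZL184 did not change. On FPKM there were 27 tests over the members and comparisons, with 18 more made without JZL184 library 3 and 27 on each of the 2 log scales. The p-values are not adjusted. Leaving out SAP library 2 left the log2 fold change between SAP and control at -2.97, and leaving out JZL184 library 3 left that between JZL184 and control at -6.79, which was called at an adjusted p of 0.0136 by edgeR. In that fit 2.75% of genes were called lower.

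The neighbour RatNP-3b, named after a neutrophil peptide, was among the most abundant alpha-defensins of the ileum. It stood at 7585, 7755 and 7107 FPKM in the control libraries, where the 8 genes of the neutrophil list summed to between 0.89 and 2.06 FPKM. Its level was 2444, 2140, 7476 and 13422 FPKM in SAP libraries 1 to 4, and 6395, 4087, 50.38 and 5333 FPKM in JZL184 libraries 1 to 4. In JZL184 library 1, 122741 reads lay on RatNP-3b and 0 on Defa11, and in SAP library 4 the counts were 246705 and 2. Per 1000 FPKM of RatNP-3b, Defa11 had 9.8 to 18.4 FPKM in the control libraries, 0.00894 to 4.85 in the SAP libraries and 0 to 0.624 in the JZL184 libraries. The transcripts of these genes were not compared here, and whether uniquely aligned reads were divided unevenly between them was not tested.

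**Figure D2:**
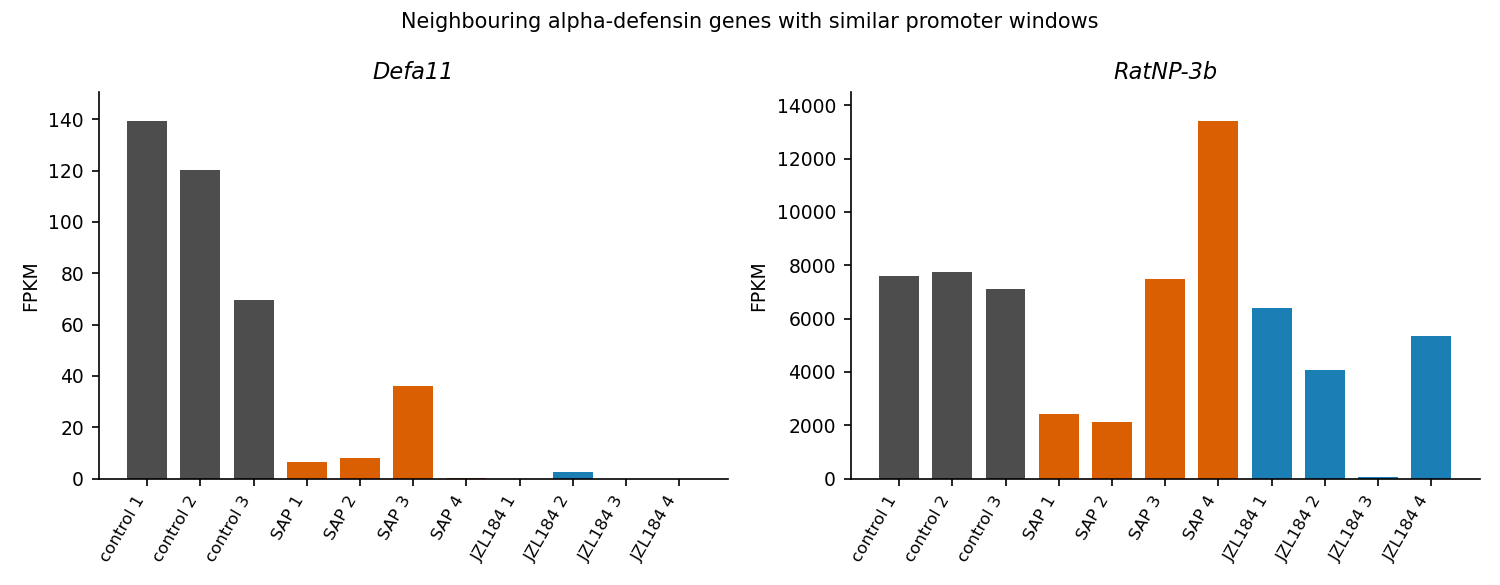
FPKM of Defa11 (left) and of its neighbour RatNP-3b (right) in each library, on linear axes from 0, with 1 bar per library and no error bars. Defa11 was at 0.12 FPKM in SAP library 4, the library in which RatNP-3b was highest at 13422 FPKM.

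Defa24, the most abundant member, was nearly even in the control libraries, at 8404, 8765 and 9105 FPKM. It stood at 2261, 4324, 8925 and 10330 FPKM in SAP libraries 1 to 4, so that SAP libraries 1 and 2 lay below the controls and SAP libraries 3 and 4 beside or above them. It stood at 4010, 3165, 54.69 and 5433 FPKM in JZL184 libraries 1 to 4, all below every control library. On normalized counts, 20.3% of all genes tested did so. The log2 fold change was -0.58 (SE 0.62) for SAP against control, -0.90 (SE 0.97) for JZL184 against SAP and -1.49 (SE 1.10) for JZL184 against control, and none of these passed edgeR's test, with adjusted p of 0.632, 0.592 and 0.414. Without JZL184 library 3 the difference from control was -1.08 (SE 0.34, edgeR adjusted p = 0.0886). With DESeq2 and without that library it was -1.10, with an adjusted p of 0.0235, in a comparison in which 4.25% of genes were called lower.

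Defa9 stood at 715, 811 and 775 FPKM in the control libraries. It stood at 288, 335, 669 and 584 FPKM in SAP libraries 1 to 4 and at 204, 302, 15.17 and 431 FPKM in JZL184 libraries 1 to 4. All SAP and JZL184 libraries lay below all control libraries. On normalized counts, 13.1% of all genes tested did so in SAP and 20.3% in JZL184. The log2 fold change was -0.86 (SE 0.43) for SAP against control, -0.80 (SE 0.76) for JZL184 against SAP and -1.68 (SE 0.89) for JZL184 against control, with adjusted p of 0.459, 0.537 and 0.267 by edgeR. Without JZL184 library 3 the last difference was -1.28 (SE 0.37, edgeR adjusted p = 0.0736), and with DESeq2 it was -1.30 and passed the test at an adjusted p of 0.0203. Without JZL184 libraries 1 and 3, a fit chosen after seeing the data, edgeR called Defa9 and Defa11 lower, where 10.4% of genes were called lower. Defa5 was barely detected, with 0 to 2 reads per library, too few for a test, and it cannot be compared between groups.

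Mmp7, whose product cuts defensin precursors in the mouse, was near 100 FPKM in the control libraries, at 108.84, 109.42 and 98.34. SAP libraries 1 to 4 were at 40.93, 96.69, 109.53 and 119.97 FPKM and JZL184 libraries 1 to 4 at 32.17, 40.33, 3.67 and 77.87 FPKM. The JZL184 libraries lay below all control libraries, as 20.3% of all genes tested did on normalized counts. The SAP libraries overlapped with both groups. The log2 fold change was -0.33 (SE 0.46) for SAP against control, -1.08 (SE 0.72) for JZL184 against SAP and -1.43 (SE 0.83) for JZL184 against control, none of which passed edgeR's test (adjusted p = 0.715, 0.386 and 0.307). The exact permutation test on FPKM gave p = 0.0571 for JZL184 against SAP, and p = 0.143 without JZL184 library 3.

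Lyz2, lysozyme, which macrophages also make, stood at 1204, 1200 and 989 FPKM in the control libraries, at 643, 2191, 1212 and 1581 in SAP libraries 1 to 4 and at 1095, 534, 197 and 1120 in JZL184 libraries 1 to 4. Its groups overlapped in each comparison. Its log2 fold changes were 0.19 (SE 0.49), -0.78 (SE 0.56) and -0.61 (SE 0.61) for SAP against control, JZL184 against SAP and JZL184 against control, with edgeR adjusted p of 0.848, 0.419 and 0.544. The 8 genes of the macrophage list summed to 346 to 400 FPKM in the control, 161 to 436 in the SAP and 105 to 305 in the JZL184 libraries, and their part in the Lyz2 level was not tested.

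Pla2g2a, the secretory phospholipase A2, stood at 1322, 1326 and 1526 FPKM in the control libraries, at 696, 906, 1447 and 2476 in SAP libraries 1 to 4 and at 915, 1449, 502 and 1519 in JZL184 libraries 1 to 4. SAP libraries 1 and 2 were below and SAP library 4 was above every control library. The log2 fold changes were -0.16 (SE 0.56), -0.19 (SE 0.53) and -0.37 (SE 0.48) for SAP against control, JZL184 against SAP and JZL184 against control, and none passed edgeR's test (adjusted p = 0.888, 0.848 and 0.65).

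Itln1, a lectin of goblet and Paneth cells that binds bacterial sugars, varied widely within each group. It stood at 163, 164 and 690 FPKM in the control libraries, at 27.74, 390, 48.36 and 67.39 in SAP libraries 1 to 4, and at 445, 69.09, 182 and 513 in JZL184 libraries 1 to 4. Its highest SAP library was SAP library 2, and the remaining SAP libraries lay below every control library. The log2 fold change was -1.86 (SE 0.99) for SAP against control and 1.37 (SE 0.83) for JZL184 against SAP, with edgeR adjusted p of 0.459 and 0.347. Without SAP library 2 these were -3.22 (SE 0.65) and 2.72 (SE 0.69), with adjusted p of 0.392 and 0.185. For JZL184 against control it was -0.52 (SE 0.75, edgeR adjusted p = 0.686).

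Ang, the ribonuclease angiogenin, was low throughout, at 2.63, 3.09 and 4.04 FPKM in the control libraries, at 1.02, 2.80, 4.27 and 4.46 in SAP libraries 1 to 4 and at 1.07, 2.60, 9.49 and 3.96 in JZL184 libraries 1 to 4. Its highest value lay in JZL184 library 3, where the defensins were lowest. Its log2 fold changes were -0.26 (SE 0.61), 0.54 (SE 0.67) and 0.26 (SE 0.72), and none passed edgeR's test (adjusted p = 0.826, 0.643 and 0.846).

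**Figure D3:**
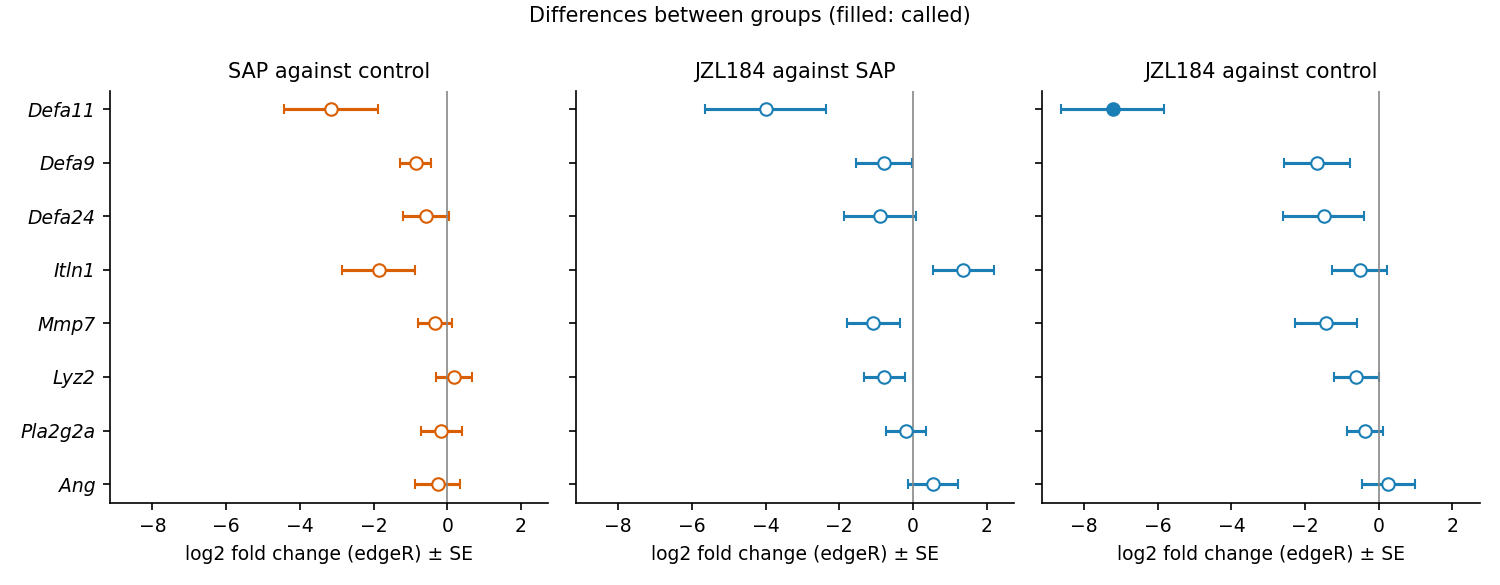
Log2 fold change for the 8 members tested in each comparison, from edgeR's quasi-likelihood fit, with a standard error derived from its F statistic and filled points for calls. The call is Defa11 in JZL184 against control at -7.22, and the remaining points are open.

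Over the 8 members tested, 0 were called in SAP against control, 0 in JZL184 against SAP and 1 in JZL184 against control by edgeR, and DESeq2 called 0 in each. In SAP against control, DESeq2 gave no p for Itln1, at a log2 fold change of -1.87, so that member was not tested there. Of all genes, edgeR called 0% between SAP and control and 0% between JZL184 and SAP, where 1457 and 3267 genes had an unadjusted p below 0.05, while DESeq2 called 0.893%, 5.32% and 8.04% of genes in the 3 comparisons. The median log2 fold change of the members was -0.45, -0.79 and -1.02, and that of all genes tested was 0.06, -0.05 and 0.08. Members whose normalized counts lay below those of all samples of the other group were Defa9 and Defa11 in SAP against control, where 13.1% of genes did so, none in JZL184 against SAP, where 5.72% did, and Mmp7, Defa9, Defa24 and Defa11 in JZL184 against control, where 20.3% did.

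SAP libraries 1 and 2 stood apart from SAP libraries 3 and 4 in several members. When only SAP libraries 1 and 2 were set against control, edgeR called Defa9, Defa24, Pla2g2a and Defa11 lower, at -1.60, -1.72, -1.12 and -4.08 on the log2 scale, in a fit that called 16.9% of genes lower. Without SAP libraries 1 and 2, the same 4 members had log2 fold changes of -0.37, 0.06, 0.41 and -2.60, and none was called. Defa9, Defa24, Defa11 and Pla2g2a are 442, 455, 565 and 961 bases long in the tables, among the short genes that were low in SAP libraries 1 and 2. With each library's trend on gene length removed, the log2 fold changes between SAP and control were -0.32 for Defa9, -0.16 for Defa24, 0.16 for Pla2g2a and -2.65 for Defa11. The part of the length trend in the defensin levels was not tested further.

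In bulk tissue, fewer Paneth cells and less RNA per cell cannot be told apart. To allow for the share of epithelium, reads of each member were set against 1000 reads of Epcam, Cdh1, Krt8, Krt18, Vil1 and Cldn7, which took 1.65% to 1.92% of reads in the control libraries and 0.883% to 1.28% in the others. Defa11 then had 4.06, 3.64 and 2.39 reads in the control libraries, 0.362, 0.514, 1.67 and 0.0051 in SAP libraries 1 to 4 and 0, 0.135, 0 and 0.00355 in JZL184 libraries 1 to 4, and it still did not overlap between JZL184 and control (exact permutation p = 0.0667). Defa9 had 16.2, 19.1 and 20.7 in the control libraries and 9.62, 12.4, 0.645 and 18 in JZL184 libraries 1 to 4, so that JZL184 library 4 lay above control library 1 (exact permutation p = 0.267). Defa24 and Mmp7 also overlapped between JZL184 and control on this scale, with exact permutation p of 0.333 and 0.4. The overlap depended on the genes used as the base. Per 1000 reads of Epcam alone, Defa9, Defa24 and Mmp7 did not overlap between JZL184 and control, with exact permutation p of 0.0667, 0.133 and 0.133. The share of all genes without overlap was not counted on either scale. On normalized counts, 20.3% of all genes tested lay below every control sample in JZL184 against control. Krt8, which is in the base of 6 genes, was itself at 3298 to 4586 FPKM in the control and 1247 to 1625 FPKM in the JZL184 libraries.

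JZL184 library 3 held hardly any Paneth cell defensins. Against the mean of the other JZL184 libraries it had 1.3% of the FPKM of Defa24, 4.86% of Defa9, 7.32% of Mmp7, 21.5% of Lyz2, 38.8% of Pla2g2a and 53.1% of Itln1, and 373% of Ang. Epcam was at 3249 FPKM there and between 2220 and 3814 in the other libraries. The small intestine and ileum list of 7 genes, which includes Fabp6 and was chosen after the values were seen, summed to 572 FPKM, against 9609 to 39664 in the other libraries, while the large intestine list of 6 genes, chosen likewise, summed to 682 against 9.34 to 54.4. Car1, a carbonic anhydrase of the large intestine, was at 477.54 FPKM in that library and at 0.17 to 24.50 in the others. Car2, Trpv6 and Hoxa9 of the large intestine list were also highest there, with Car2 at 127.09 FPKM against 0.75 to 7.31. Slc26a3 and Aqp8, the remaining genes of the list, were not, at 39.02 and 0.13 FPKM against 8.02 to 42.59 and 0.04 to 2.25. Reg3b and Reg3g, antimicrobial lectins of the small intestinal epithelium, were at 47.67 and 22.73 FPKM there and at 3917 to 6601 and 1141 to 2398 elsewhere. In JZL184 library 1, the proximal small intestine list of 3 genes, chosen likewise, summed to 2302.9 FPKM, against 5.49 to 920.7 in the other libraries. Fabp6 was at 409.74 FPKM in that library, at 79.92 in JZL184 library 3 and at 3079 to 21819 in the others. The small intestine and ileum list summed to 22925.8 FPKM in JZL184 library 1, within the range of the others. The part of these markers in the member differences was not tested.

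**Figure D4:**
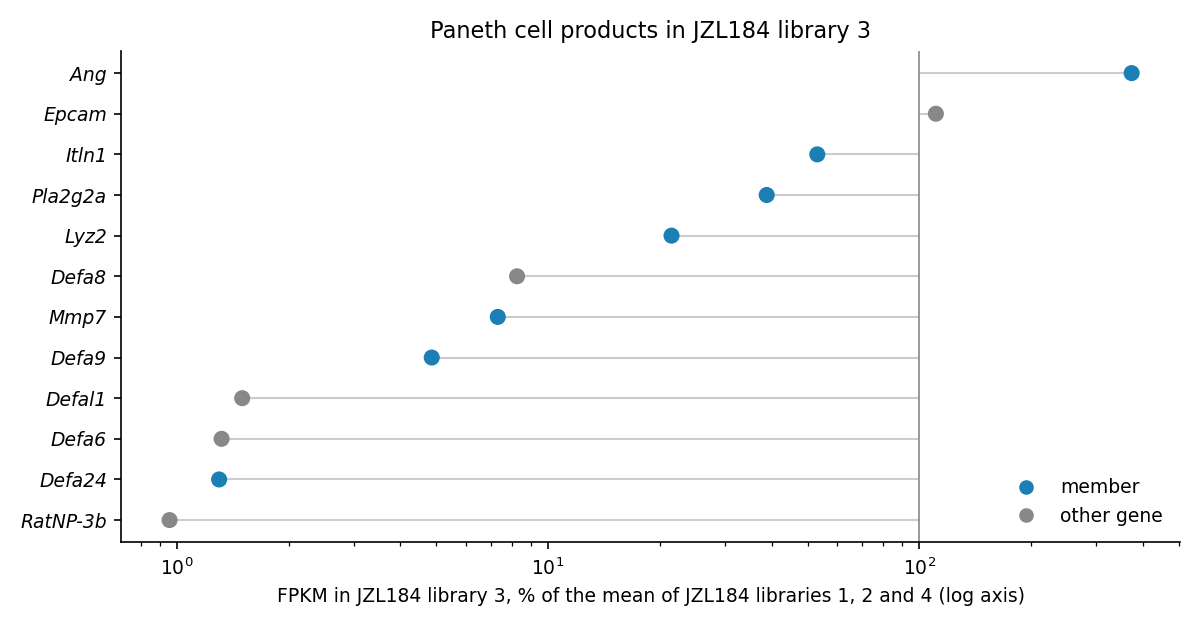
FPKM in JZL184 library 3 as a percentage of the mean of JZL184 libraries 1, 2 and 4, on a log axis, for members (blue) and for other alpha-defensin genes and Epcam (grey). Defa24 was at 1.3% and Ang at 373%, with Epcam at 110.8%, while Defa11 and Defa5 are not drawn because they were listed at 0.

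Across the 10 samples, levels of Defa9 and Defa24 followed each other, with Pearson's r of 0.98 on log2(FPKM + 1), and 0.86 over the 9 samples without JZL184 library 3. For Defa9 and Mmp7 r was 0.97, and 0.87 without that library. Defa11 was less like them, with r of 0.57 with Defa9 and 0.44 with Defa24, and Itln1 had r of -0.03 with Defa9. The points share library depth and the length trend, and these values are descriptions. Of all 11084 genes with a mean of at least 1 FPKM, those most like the mean of the Defa members were Cd7 (r = 0.98), Pitx1 and Pklr (both 0.97), Xpnpep2 and Myo1a (both 0.96), and Tcn2, Rnpep and Naaladl1 (all 0.95). Without JZL184 library 3, Pitx1 (r = 0.95) and Cd7 (0.94) were the only ones of these still among the 8 most alike, and the first were LOC500189 and LOC500181 (both 0.96), so that most of the list rests on that library. The genes most like Defa24 alone were Defal1 and Defa8 (both r = 0.99), and RatNP-3b and Defa6 (both 0.98) were also among its 8 most alike. Without that library, only Defa8 (0.98) of these alpha-defensin genes was still among the 8.

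Of 19 other alpha-defensin genes listed, 6 were found and 4 were tested, and 0 were called in each comparison by edgeR, with 0 at an unadjusted p below 0.05, and by DESeq2. All 4 had negative log2 fold changes in the 3 comparisons, with medians of -0.27, -0.66 and -1.04. Defa6, Defa8 and Defal1 stood in JZL184 library 3 at 1.32%, 8.25% and 1.5% of the mean of the other JZL184 libraries. Defa10 had 5, 5 and 3 reads in the control libraries, 0 to 2 in the SAP libraries and 0 in every JZL184 library.

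Of 28 genes for the differentiation and function of Paneth cells, 25 were tested. EdgeR called 0 in SAP against control, 0 in JZL184 against SAP and 2 lower in JZL184 against control. DESeq2 called 0, 2 lower, and 2 higher with 6 lower. Of all genes, edgeR called 0%, 0% and 2.16% in these comparisons, and DESeq2 called 0.893%, 5.32% and 8.04%. The 2 called by edgeR were Kcnn4, a potassium channel, at a log2 fold change of -1.76 (SE 0.31, edgeR adjusted p = 0.0357), and Dll4, a Notch ligand, at -1.75 (SE 0.35, edgeR adjusted p = 0.0468), and Dll4 was named after its values were seen. Wnt3, the Wnt ligand that Paneth cells supply to stem cells, was at 0.61 to 0.88 FPKM in the control and 0.04 to 0.27 in the JZL184 libraries, with a log2 fold change of -1.95 (SE 0.56) for JZL184 against SAP and an edgeR adjusted p of 0.122. Mptx1, a mucosal pentraxin of Paneth cells, had -3.86 (SE 1.15, edgeR adjusted p = 0.128) in that comparison. It stood at 5.52, 5.41, 5.40 and 82.14 FPKM in SAP libraries 1 to 4, at 0.58 to 3.38 in the JZL184 and at 2.93 to 50.13 in the control libraries, so that SAP library 4 was far above the other SAP libraries. Ern2, a stress sensor of the endoplasmic reticulum in secretory cells, had -2.80 (SE 0.62, edgeR adjusted p = 0.0851) there. Between SAP and control, Egf and Kit had 1.60 and 1.11, with an edgeR adjusted p of 0.459 for both.

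Among 20 other antimicrobial genes of the epithelium, 15 or 16 were tested in each comparison. EdgeR called 1 in JZL184 against control, where it called 2.16% of all genes. That gene was Lcn2, whose product binds bacterial siderophores. It stood at 1.57 to 3.25 FPKM in the control, 29.28 to 100.30 in the SAP and 100.35 to 504.36 in the JZL184 libraries, and it rose in JZL184 against control by 6.95 on the log2 scale (SE 0.87, edgeR adjusted p = 0.0155). For SAP against control and JZL184 against SAP its log2 fold changes were 4.51 and 2.47, with edgeR adjusted p of 0.15 and 0.0856. Neutrophils also make Lcn2, and the neutrophil list summed to 0.89 to 2.06 FPKM in the control, 8.11 to 79.8 in the SAP and 12.7 to 246.1 in the JZL184 libraries, whose part in the Lcn2 level was not tested. Lcn2 was at 264.22 FPKM in JZL184 library 3, within the range of the other JZL184 libraries. DESeq2 called Lcn2 higher in all 3 comparisons and, in JZL184 against SAP, also Duoxa2, Nos2 and Defb1, 4 in all. Of all genes, it called 0.893%, 5.32% and 8.04% in the 3 comparisons. Reg4, Duoxa2 and Nos2 followed in order of p, and none passed edgeR's test: Reg4, a lectin, had a log2 fold change of -1.36 (SE 0.36, edgeR adjusted p = 0.459) between SAP and control, and Duoxa2 and Nos2, which serve the making of hydrogen peroxide and nitric oxide, had 2.12 and 1.85 between JZL184 and SAP (edgeR adjusted p = 0.149 and 0.168).

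The intestinal stem cell list of 8 genes, the goblet cell list of 8, the enterocyte list of 10 and the epithelial list of 6 had 0 genes called by edgeR in each comparison, and each had between 0 and 4 genes in a direction at an unadjusted p below 0.05. DESeq2 called 0 of them between SAP and control and 0 to 2 a list, all lower, in the comparisons with JZL184. It called 5.32% of all genes in JZL184 against SAP and 8.04% in JZL184 against control.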

How the data were processed

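Ileum libraries of stranded mRNA were sequenced. The authors trimmed reads with FASTX-Toolkit, aligned them to mRatBN7.2 with HISAT2 and deposited a count of uniquely aligned reads per gene, without normalization, and FPKM calculated from them. For the counting tool and the annotation, the sources used here give nothing. The members and lists were chosen with earlier results of these data known. Counts of all genes were compared pairwise with edgeR 4.0.16 (quasi-likelihood test, TMM, minimum count 10, Benjamini-Hochberg adjustment) in R 4.3.3, with control libraries 1 and 2 summed, and called as stated above. DESeq2 1.42.0 and the other alternatives are given in the closing section. FPKM were compared with exact two-sided permutation tests of the difference of means. Standard errors given with edgeR fits are the absolute log2 fold change divided by the square root of the test's F statistic. Gene length was taken from counts and FPKM. Named genes are all members, the 3 with the smallest edgeR p of the alpha-defensin, antimicrobial and Paneth cell lists in SAP against control and in JZL184 against SAP, and the 8 most like the Defa members over 10 samples; others were named after their values were seen. The labels do not say that each library came from a different rat, so p-values measure the spread between these samples. The fits were also run on simulated data with the same spread for every gene and no length trend or deviating library. That run therefore does not test how the fits handle such features. Promoters were taken from the RefSeq table of GRCr8 and aligned with Biopython 1.88. Python 3.11.15 was used.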

Additional observations from a re-analysis of the deposited data

Results flagged for a closer look

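In each group of 4 libraries, the gap of the most distant library was divided by the range of the group, and values above Dixon's 95% critical value are given here for the 9 members on FPKM and on log2(FPKM + 1). Chance gives about 1 in 20 groups. Defa11 in the JZL184 group had a ratio of 0.973 on FPKM and of 0.947 on the log2 scale, because JZL184 library 2 was at 2.55 FPKM and the other JZL184 libraries were at 0 to 0.07. Defa24 in the JZL184 group had a ratio of 0.882 on the log2 scale, because JZL184 library 3 was at 54.69 FPKM. Itln1 in the SAP group had a ratio of 0.891 on FPKM, because SAP library 2 was at 390.18 FPKM.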

How the results depend on the processing

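The count of members called between SAP and control was 0 and moved to 4 without SAP libraries 3 and 4 (Defa9, Defa24, Pla2g2a and Defa11). That fit called 5859 of 15764 genes, with 16.9% of all genes lower. Between JZL184 and control the count was 1, where 2.16% of all genes were called. It moved to 0 with DESeq2 and with all 3 groups in 1 fit. With at least 10 reads in every library it was also 0, since the filter removed Defa11 and 7 members were tested. It moved to 2 without JZL184 libraries 1 and 3 and with DESeq2 without JZL184 library 3. These last fits, chosen after seeing the data, called 10.4% and 4.25% of all genes lower. Leaving out 1 library at a time gave 0 to 1 members, with 0 without JZL184 library 4 and 0 without either control sample, where 1 control sample was left, the spread came from the JZL184 group and 0 and 1 of all genes were called. Between JZL184 and SAP it was 0 under every alternative run.

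The sign of some small log2 fold changes turned, none of which passed the test. Between SAP and control, Defa24 was 0.06, Mmp7 0.08, Pla2g2a 0.41 and Ang 0.29 without SAP libraries 1 and 2. With gene length offsets, Mmp7 was 0.06, Pla2g2a 0.16 and Ang 0.15. Leaving out 1 library at a time gave -0.04 to 0.45 for Lyz2, -0.69 to 0.08 for Pla2g2a and -0.55 to 0.05 for Ang. Between JZL184 and SAP, Defa24 was 0.24 and Pla2g2a 0.76 without SAP libraries 3 and 4, and Ang was -0.00 without SAP libraries 1 and 2. Leaving out 1 library at a time gave -0.43 to 0.34 for Pla2g2a and -0.12 to 0.88 for Ang. Without JZL184 libraries 1 and 3, Pla2g2a was 0.31. DESeq2 without JZL184 library 3 gave 0.09 for Pla2g2a and -0.10 for Ang, and length offsets without it gave -0.40 for Ang. Between JZL184 and control, leaving out 1 library at a time gave -1.20 to 0.76 for Itln1, with -1.20 without control libraries 1 and 2, 0.76 without control library 3 and -0.96 without JZL184 library 4, and -0.41 to 0.59 for Ang, with -0.41 without JZL184 library 3. Without JZL184 libraries 1 and 3, Pla2g2a was 0.12 and Ang -0.01. Length offsets without JZL184 library 3 gave Pla2g2a 0.04 and Ang -0.28, and DESeq2 without it gave Ang -0.42. The cause was not tested.

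Same-numbered libraries did not deviate together, with r of -0.39 to -0.26 between SAP and control, -0.55 to 0.17 between JZL184 and SAP and -0.14 to 0.22 between JZL184 and control. With so few libraries, these values cannot decide whether the numbers pair the samples. With the replicate number as a block, the counts of members called were 0, 0 and 1, also with gene length offsets in JZL184 against SAP (0). The block fits against control counted the near-identical control libraries 1 and 2 as separate samples. In them, Lyz2 between SAP and control was -0.13 and Ang between JZL184 and control -0.11.

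Of the log2 fold changes of members under all alternatives, 401 kept their direction and side of the threshold, 31 turned, 7 passed the threshold only under the alternative and 6 lost it. With 2 control samples, exact permutation tests against control cannot go below 0.0667. Low reads limit Defa5.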
